A study of Mus musculus with 9 samples.

Results

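The 10 genes described here encode the 5 subunits of the transcription factor NF-kB (Nfkb1, Nfkb2, Rel, Rela and Relb) and 5 of the IkB proteins that hold it back or steer it (Nfkbia, Nfkbib, Nfkbie, Nfkbiz and Bcl3). They were chosen by symbol, with earlier results of these data known. All 10 were among the 55367 gene symbols of the count files, and all 10 were among the 13707 genes with enough reads to be tested. The measurements come from mRNA sequencing of adult mouse monocytes that were kept for 4 h with a control buffer, with adult platelets or with P7 platelets (titled Neo in the sample names), and then washed. Each of the 3 groups holds 3 libraries. The labels give no strain, genotype, age in days or way of isolation for the monocytes, no dose of platelets, and no statement that replicates came from different animals. The p-values therefore refer to the spread among these libraries, part or all of which may be technical.

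NF-kB is a family of dimers built from 5 related proteins that share a Rel homology domain. In a resting monocyte most dimers are held in the cytoplasm by the classical inhibitors IkB-alpha, IkB-beta and IkB-epsilon, the products of Nfkbia, Nfkbib and Nfkbie. Signals from Toll-like receptors, the IL-1 receptor or TNF receptors activate the IKK kinase complex, which marks these inhibitors for destruction and frees dimers of RelA, c-Rel and p50 (the canonical route). A slower noncanonical route uses the kinase NIK to process p100, the product of Nfkb2, to p52, the partner of RelB. Several genes of the family are themselves NF-kB targets, the best known being Nfkbia, whose renewed synthesis shuts the response down. Transcript levels, which are what was measured here, do not show where the proteins are or whether they are active.

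The upstream sequence of members that differ in how far they moved is shown first, because NF-kB acts by binding kappaB sites, and several members are known targets. RefSeq (GRCm38.p6) gave start sites for 7 of the 10 members, with 9 starts in all. The 250 bases before each start were searched on both strands for a first form of the site, GGGAA, any 3 bases, then CC. The second form was the kappaB consensus GGGRNNYYCC (R for A or G, N for any base, Y for C or T). The forms overlap but neither contains the other, and GGGAAGTACC in Nfkbia matches the first alone. At least 1 match to the first was found for 3 of the 7 members and to the second for 4, while 5.62% of all 27025 RefSeq genes with a start site held the first and 8.23% the second (4.94% and 7.25% of 32851 start sites). The windows of Nfkbia at chr12:55492648-55492897 (minus strand), Rel at chr11:23770970-23771219 (minus strand) and Nfkbie at chr17:45555450-45555699 (plus strand) are printed 5′ to 3′ up to the base before the start, with the matches in capitals.
Nfkbia: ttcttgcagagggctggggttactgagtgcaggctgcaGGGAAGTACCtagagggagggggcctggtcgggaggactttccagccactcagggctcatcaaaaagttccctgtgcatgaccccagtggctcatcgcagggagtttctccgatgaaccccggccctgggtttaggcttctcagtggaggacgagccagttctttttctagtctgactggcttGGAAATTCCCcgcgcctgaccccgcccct
Rel: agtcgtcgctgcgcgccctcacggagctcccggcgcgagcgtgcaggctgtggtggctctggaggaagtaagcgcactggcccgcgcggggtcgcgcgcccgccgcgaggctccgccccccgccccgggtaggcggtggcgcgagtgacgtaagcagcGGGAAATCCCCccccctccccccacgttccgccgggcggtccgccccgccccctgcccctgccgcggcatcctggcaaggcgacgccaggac
Nfkbie: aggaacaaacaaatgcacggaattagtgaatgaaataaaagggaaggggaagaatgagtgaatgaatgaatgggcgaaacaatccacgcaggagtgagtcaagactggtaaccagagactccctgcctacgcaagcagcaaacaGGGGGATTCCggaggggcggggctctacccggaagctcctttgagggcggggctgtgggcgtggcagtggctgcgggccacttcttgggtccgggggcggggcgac

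In Nfkbia the capitals stand 212 and 29 bases before the start, in Rel 92 bases before it and in Nfkbie 106 bases before it. Nfkb2 had matches before each of its 3 RefSeq starts, among them GGGAATTCCCC 39 bases and GGGGCTTTCCC 11 bases before the first of them. Nfkb2 had more starts, and so more windows, than any other member. These 3 windows lie within the gene bounds given below. Annotated exons of Nfkb2 or of the overlapping AC114539.1 cover 250, 167 and 234 of their 250 bases. The windows of Rela, Nfkbib and Bcl3 held no match to these letters. A match is a description of the sequence and was not tested for binding.

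On the reference annotation GENCODE M21 (GRCm38) the genes lie on 7 chromosomes. Nfkb1 is on chromosome 3 at 135584655 to 135691547. Nfkb2 (46304320 to 46312385) and Rela (5637483 to 5648130) are on chromosome 19. Rel is on chromosome 11 at 23736847 to 23770970. Chromosome 7 carries Relb (19606217 to 19629438), Bcl3 (19808462 to 19822770) and Nfkbib (28758251 to 28767512). Nfkbia is on chromosome 12 at 55489410 to 55492647, Nfkbie on chromosome 17 at 45555703 to 45563169 and Nfkbiz on chromosome 16 at 55811375 to 55838899. Other annotated genes overlap Nfkb1, Nfkb2, Nfkbib and Bcl3, on the opposite strand for the last 3. The strand setting of the counting is not given in the sources used here, so reads of the overlapped parts could be shared.

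Total counts per library ranged from 29687341 to 37065564, and the member with the fewest reads, Nfkbib, had at least 2059 in each library, a counting error of at most 2.20%. Levels are normalised CPM, the read count scaled to a common library size after TMM correction. Fold changes are log2 values ± SE from edgeR's quasi-likelihood test on all 13707 genes, with p adjusted over all of them, and a gene is said to rise or fall only at an adjusted p below 0.05. All 10 monocyte markers were present in every group and summed to 24961 to 27539 CPM of the unscaled total in control, 26576 to 30996 with adult platelets and 24589 to 29751 with P7 platelets. They moved both ways. With P7 platelets against control 7 of the 10 rose, among them Cd14 (0.99), the gene of an endotoxin co-receptor, and Cx3cr1 (0.95), a chemokine receptor gene, and 2 fell, Ccr2 (-0.45), the receptor gene of classical monocytes, and Spn (-0.16). With P7 against adult platelets 5 rose and 2 fell, and with adult platelets against control 3 rose and 2 fell. Of all genes tested 29.9%, 19.7% and 14.3% rose in these comparisons, in the order given, and 29.3%, 19.8% and 12% fell. Summed over 13 platelet markers the libraries held 7.53 to 15.1 CPM in control, 737 to 1362 with adult platelets and 1210 to 1420 with P7 platelets. Summed over 5 erythroid markers they held 8.81 to 11.7, 481 to 1797 and 43551 to 55035 CPM in the same order. All 13 platelet and all 5 erythroid markers rose with either kind of platelet. The 10 T and NK cell markers together stayed at 1.38 to 4.68 CPM, and the NK cell gene Ncr1 was at 0 in control and with adult platelets. The 9 neutrophil markers summed to 242 to 556 CPM, and 6 dendritic cell markers to 64.0 to 83.9 in control, 45.4 to 87.1 with adult and 30.9 to 44.2 with P7 platelets. In such bulk libraries a change in the share of cells of a type and a change in RNA per cell cannot be told apart.

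With P7 platelets, 9 of the 10 members rose above control and none fell, and the same number rose above adult platelets. With adult platelets only Relb rose, by a factor of 1.40. The rises over control with P7 platelets ran from 1.49-fold for Rela to 3.09-fold for Nfkbiz, and the 3 genes at about 3-fold (Nfkbiz, Nfkbie and Nfkbia) all encode IkB proteins, of which the product of Nfkbiz can also activate genes. Rel was the member that did not pass the test in any of the 3 comparisons. Of all genes tested 29.9% rose with P7 platelets against control, 19.7% with P7 against adult platelets and 14.3% with adult platelets against control, while 29.3%, 19.8% and 12% fell. The median log2 fold change of the members was 1.26, 0.90 and 0.26 in that order, and that of all genes tested -0.01, -0.02 and -0.002. Both comparisons with control use the same 3 control libraries, and the members were chosen with earlier results of these data known. The levels in every library are plotted next.

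**Figure D1:**
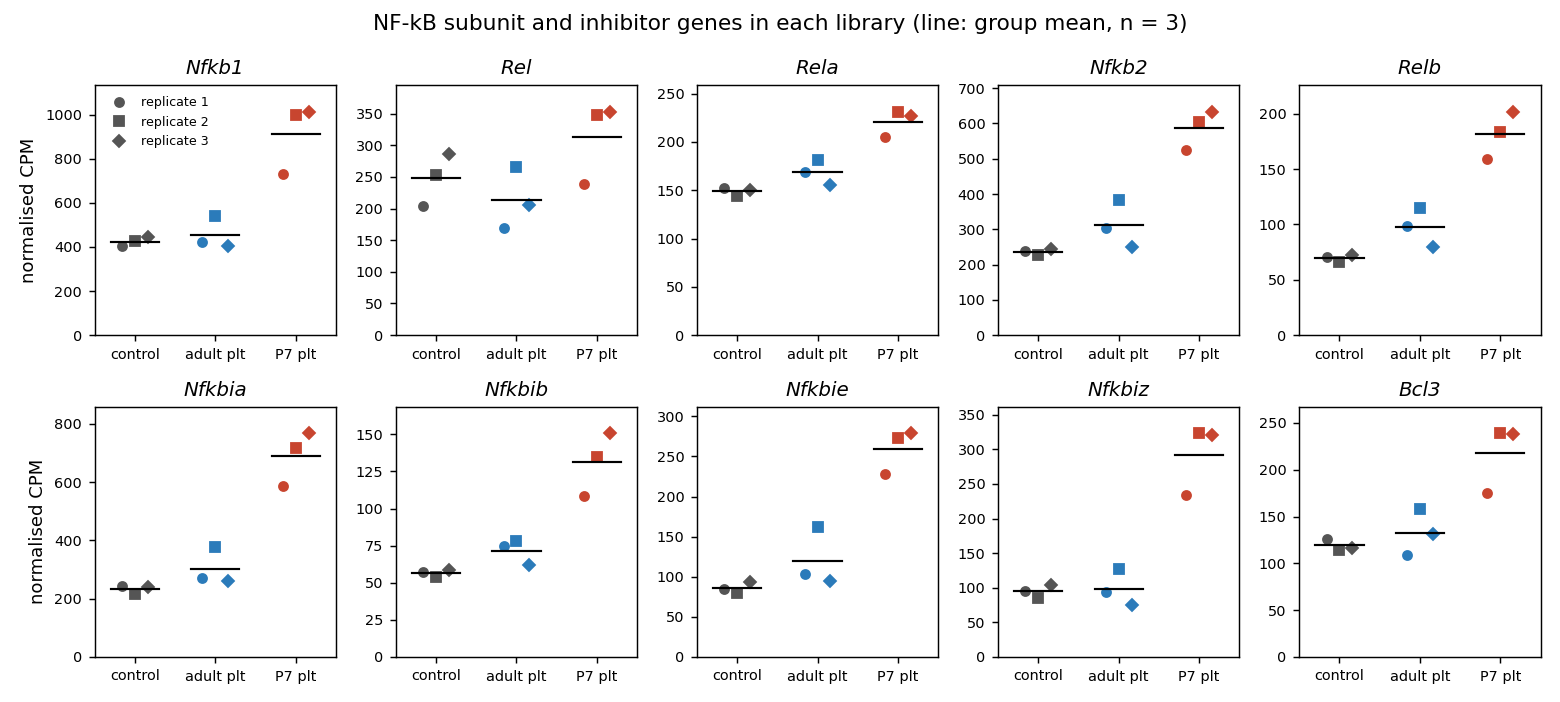
Normalised CPM of each member (vertical axis, starting at 0, with its own scale per gene) in the 9 libraries, grouped as control, adult platelets (adult plt) and P7 platelets (P7 plt); symbols mark the replicate and lines the mean of 3. The P7 libraries lie above all others for every member except Rel, adult platelet replicate 2 is the highest of its group for all 10 members, and P7 replicate 1 is the lowest of its group for all 10.

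Of the canonical subunits Nfkb1 and Rela rose with P7 platelets and Rel did not pass. Nfkb1, which encodes p105, the precursor of the p50 subunit, stood at 404, 425 and 445 CPM in the control libraries, at 422, 541 and 406 with adult platelets and at 731, 1000.5 and 1014 with P7 platelets. Control and adult platelet libraries overlapped (0.10 ± 0.14, adjusted p = 0.630), and every P7 library lay above both groups (1.11 ± 0.14 over control, adjusted p = 0.000139, and 1.004 ± 0.14 over adult platelets, adjusted p = 0.000698). Rela, which encodes the main activating subunit p65, stood at 153, 144 and 149.8 CPM in control, at 169, 181 and 155 with adult platelets and at 205, 231 and 227 with P7 platelets. No groups of Rela overlapped, and its rise with P7 platelets was small and even across replicates (0.57 ± 0.07 over control, adjusted p = 0.000102). Against adult platelets it rose by 0.39 ± 0.07 (adjusted p = 0.00212), while adult platelets against control gave 0.18 ± 0.07 (adjusted p = 0.0887).

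Rel, which encodes c-Rel, the subunit best known from lymphocytes and from cytokine genes of myeloid cells, had the widest spread of the members within control relative to its mean. It stood at 204, 252 and 286 CPM in control, at 169, 266 and 206 with adult platelets and at 238, 349 and 353 with P7 platelets. All 3 groups overlapped, and the intervals of the differences were wide. P7 platelets against control gave 0.34 ± 0.20 (95% interval -0.11 to 0.79, adjusted p = 0.173, or 0.33 ± 0.10 and adjusted p = 0.0176 with the replicate number as a block), P7 against adult platelets 0.55 ± 0.20 (0.10 to 1.003, adjusted p = 0.0541), and adult platelets against control -0.21 ± 0.20 (-0.66 to 0.24, adjusted p = 0.472). Without P7 replicate 1 Rel passed against control (0.50, adjusted p = 0.0468) and against adult platelets (0.71, adjusted p = 0.0162). Against adult platelets it also passed without adult platelet replicate 2 (0.75, adjusted p = 0.0177) with no filter on low counts (0.54, adjusted p = 0.0162) and with the DESeq2 Wald test (0.56, adjusted p = 0.0113).

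Rel was also set beside the B cell signal of the libraries. Igkc, an immunoglobulin light chain transcript of B cells and plasma cells, was found at 410 to 772 CPM of the unscaled total in 4 libraries (replicate 1 of each group and adult platelet replicate 3) and at 123 to 172 CPM in the other 5. Rel was lower in the former within each group, and so was Nfkb1 (404 against 425 and 445 CPM in control). With adult and with P7 platelets each of the 10 members had its lower mean in the former. Adult platelet replicate 2 was there the only adult library with little Igkc, and P7 replicate 1 the only P7 library with much. In control only Nfkb1, Rel and Nfkbie were lower in the library with much Igkc. The other members were higher there, among them Nfkbia (244 against a mean of 228 CPM). In the 5 libraries with little Igkc Rel averaged 269 CPM in control (2 libraries), 266 with adult platelets (1 library) and 351 with P7 platelets (2 libraries). In the 4 libraries with much Igkc it stood at 204 in control (1 library), averaged 188 with adult platelets (2 libraries) and stood at 238 with P7 platelets (1 library). P7 over control was thus 1.302 and 1.17, and P7 over adult platelets 1.32 and 1.27, in the sets with little and with much Igkc. A fit with a term for these 4 libraries, added after the data were seen, called Rel higher with P7 platelets than control (0.33 ± 0.08, adjusted p = 0.00499) and than adult platelets (0.39 ± 0.08, adjusted p = 0.00471). That term was drawn from the same split in which Rel is lower, and its cells hold 1 or 2 libraries, so it is no independent support. The 8 B and plasma cell markers together stood at 639 to 1149 CPM in the former libraries and at 254 to 352 in the latter. The part of other cells in the level of Rel was not tested.

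**Figure D2:**
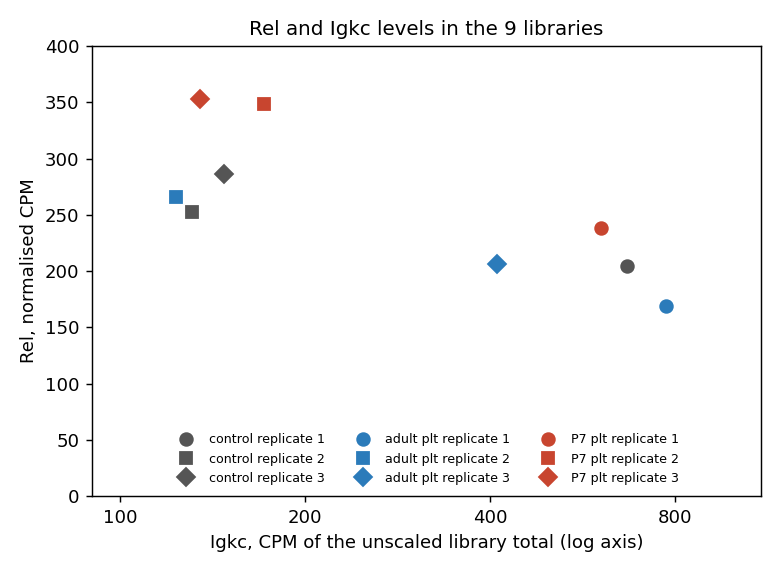
Rel (vertical axis, normalised CPM, from 0) against Igkc (horizontal log axis, CPM of the unscaled library total) in the 9 libraries, coloured by group, with the replicate as symbol (plt: platelets). Within each group the libraries at 410 to 772 CPM of Igkc lie below those at 123 to 172 CPM.

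Both noncanonical subunits rose with P7 platelets. Nfkb2 stood at 237, 227 and 245 CPM in control, at 303, 382 and 249 with adult platelets and at 524, 603 and 633 with P7 platelets. Relb, its dimer partner's gene, stood at 70.8, 66.2 and 72.4 CPM in control, at 98.6, 115 and 79.8 with adult platelets and at 159, 184 and 202 with P7 platelets. For both genes the order was control, adult platelets, P7 platelets, with no overlap between any groups. Over control with P7 platelets Nfkb2 rose by 1.31 ± 0.14 (adjusted p = 4.23e-05) and Relb by 1.38 ± 0.13 (adjusted p = 2.19e-05). Against adult platelets the rises were 0.91 ± 0.14 (adjusted p = 0.000939) and 0.89 ± 0.13 (adjusted p = 0.000735).

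Relb was also the single member to rise with adult platelets (0.49 ± 0.13, 95% interval 0.20 to 0.78, adjusted p = 0.0221), and Nfkb2 came near (0.40 ± 0.14, adjusted p = 0.0599). The Relb call was lost when any control library, adult platelet replicate 1 or adult platelet replicate 2 was left out (adjusted p = 0.0507 to 0.0837, at 0.36 to 0.51). Map3k14, the gene of the noncanonical kinase NIK, was not called with P7 platelets against control (-0.18, adjusted p = 0.290), with P7 against adult platelets (-0.14, adjusted p = 0.461) or with adult platelets against control (-0.04, adjusted p = 0.857).

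All 3 classical inhibitors rose with P7 platelets. Nfkbia, the gene of the fast feedback inhibitor IkB-alpha, stood at 244, 215 and 240.4 CPM in control, at 271, 377 and 259.7 with adult platelets and at 586, 717 and 767 with P7 platelets. Nfkbie, the gene of the delayed inhibitor IkB-epsilon, stood at 85.1, 79.8 and 93.6 CPM in control, at 104, 162 and 94.4 with adult platelets and at 228, 273 and 279 with P7 platelets. Nfkbib, the gene of IkB-beta, stood at 56.9, 54.0 and 58.5 CPM in control, at 74.9, 78.0 and 61.8 with adult platelets and at 108, 135 and 151 with P7 platelets. In all 3 genes every adult platelet library lay above every control library and below every P7 library, with adult platelet replicate 3 close to control for Nfkbie.

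Over control with P7 platelets Nfkbia rose 2.96-fold (1.56 ± 0.15, adjusted p = 2.53e-05), Nfkbie 3.02-fold (1.59 ± 0.18, adjusted p = 7.36e-05) and Nfkbib 2.32-fold (1.22 ± 0.12, adjusted p = 3.32e-05). Against adult platelets the rises were 1.19 ± 0.15, 1.11 ± 0.18 and 0.87 ± 0.12, with adjusted p = 0.000400, 0.00142 and 0.000661. Adult platelets against control gave 0.37 ± 0.15 for Nfkbia, 0.48 ± 0.18 for Nfkbie and 0.34 ± 0.12 for Nfkbib, and none passed (adjusted p = 0.0922, 0.0820 and 0.0674). These 3 did pass, together with Nfkb2, Relb and Rela, in the fit with the Igkc term drawn from the data (6 members, adjusted p = 0.00461 to 0.0328), and without Rela in the DESeq2 Wald test (5 members).

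The nuclear IkB proteins bind NF-kB on DNA and can raise or lower the activity of single genes. Nfkbiz, which encodes IkB-zeta, a co-activator of genes such as Il6, stood at 94.8, 85.3 and 103 CPM in control, at 94.2, 127 and 75.1 with adult platelets and at 233, 323 and 321 with P7 platelets. Bcl3, whose product acts with p50 and p52, stood at 126, 115 and 116 CPM in control, at 109, 158 and 132 with adult platelets and at 175, 239 and 238 with P7 platelets. For both genes the adult platelet libraries lay on either side of control and the P7 libraries above all others.

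Nfkbiz had the largest rise of the 10 members in both comparisons with P7 platelets, 1.63 ± 0.19 over control (adjusted p = 7.95e-05) and 1.57 ± 0.19 over adult platelets (adjusted p = 0.000354). With adult platelets it stayed near control (0.06 ± 0.19, 95% interval -0.36 to 0.49, adjusted p = 0.834), and left without adult platelet replicate 2 its difference was -0.16. Bcl3 rose by 0.87 ± 0.15 over control (adjusted p = 0.000797) and by 0.71 ± 0.15 over adult platelets (adjusted p = 0.00461), and adult platelets against control gave 0.16 ± 0.15 (adjusted p = 0.478).

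**Figure D3:**
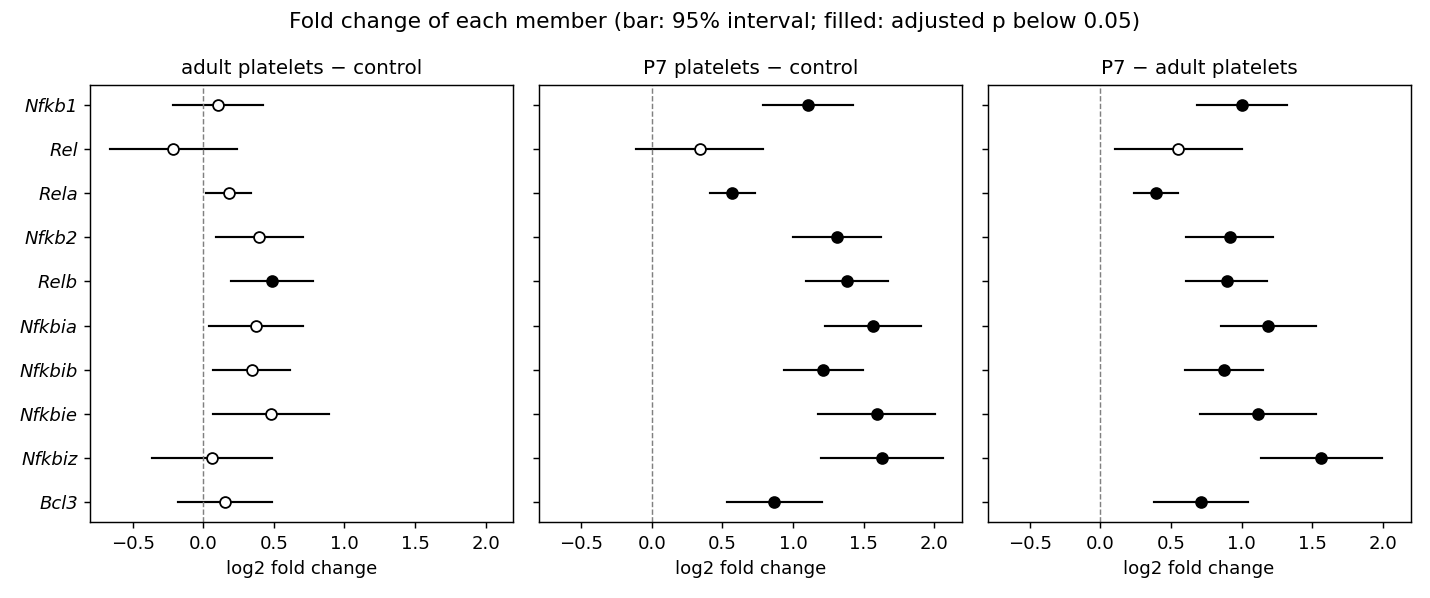
Log2 fold change (horizontal axis) of each member in the 3 comparisons, with the 95% interval of the fit as a bar; filled points have an adjusted p below 0.05 and the dashed line marks no difference. With P7 platelets 9 of 10 points are filled in either comparison, with Rel open, and with adult platelets against control Relb alone is filled.

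The CPM of the groups did not overlap for 6 of the 10 members between adult platelets and control, where this held for 42.7% of all genes. It held for 9 members between P7 platelets and control and for 9 between P7 and adult platelets, against 69.1% and 49% of all genes. At least 2-fold rises were called for 7 members with P7 platelets against control and for 4 against adult platelets, where 9.31% and 5.51% of all genes tested reached them. With upper-quartile scaling, which moved the median of all genes in P7 platelets against control to -0.12, the share of higher genes among all calls went from 50.5 to 39.5% in that comparison and from 49.9 to 37.2% in P7 against adult platelets, and the same number of members, 9, rose in each.

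Within 2 of the groups all members had the same library at one end. Adult platelet replicate 2 held the highest value of its group for 10 of 10 members, which was the case for 33.0% of all genes, and it had the lowest platelet marker sum of its group (737 CPM) and little Igkc. P7 replicate 1 held the lowest value of its group for 10 of 10 members, against 39.4% of all genes, and it had the highest platelet marker sum (1420 CPM) the highest erythroid sum of its group (55035 CPM) and much Igkc. The platelet marker sums of adult and P7 platelet libraries overlapped, while 9 members did not. With platelet, erythroid and mitochondrially encoded transcripts removed before scaling, 9 members rose with P7 platelets against control, with Nfkbia at 1.57 and Nfkb1 at 1.11. Whether any of the members' reads came from platelets was not tested.

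Levels of different genes can be compared only per length. Per kb of annotated exons Nfkbia was the most abundant member in all 9 libraries, at 145 ± 9.75 CPM per kb in control, 188 ± 40.1 with adult platelets then 429 ± 58.1 with P7 (SD, n = 3). Nfkb2 came next in all 9 libraries, at 51.6 ± 1.91, 67.9 ± 14.6 and 128 ± 12.3. In control Rela (48.4 ± 1.503) and Bcl3 (48.1 ± 2.55) did not differ from each other or from Nfkb2 beyond their spread, nor did Nfkb1 (35.2 ± 1.72) from Rel (33.2 ± 5.50). Nfkbie (28.3 ± 2.28) and Nfkbib (26.0 ± 1.03) followed, and Nfkbiz (18.8 ± 1.81) and Relb (18.0 ± 0.825) were lowest. The places of Nfkb1 and Relb depended on the length used. Per kb of the longest coding transcript Relb stood at 31.6 ± 1.45 in control, above Nfkbib (27.4 ± 1.09) and Nfkbiz (23.0 ± 2.20). The annotated exons of Nfkb1 span 12061 bases but its longest coding transcript 4117, and per kb of that transcript Nfkb1 stood at 103 ± 5.05 in control and came next after Nfkbia in all 9 libraries. With P7 platelets Bcl3 (87.9 ± 14.7), Nfkbie (85.4 ± 9.03), Nfkb1 (75.9 ± 13.2) and Rela (72.0 ± 4.66) followed Nfkb2 with overlapping libraries between neighbours, then came Nfkbib (60.5 ± 9.86), Nfkbiz (58.3 ± 10.2) and Relb (46.8 ± 5.47), each overlapping the next. Rel, which overlapped Relb, was the lowest of the 10 by either length, at 42.0 ± 8.69.

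Inhibitor transcripts were set against subunit transcripts, and the noncanonical against all subunits. The summed CPM per kb of Nfkbia, Nfkbib and Nfkbie over that of the 5 subunits was 1.14, 1.01 and 1.06 in control, 1.16, 1.28 and 1.18 with adult platelets and 1.55, 1.56 and 1.61 with P7 platelets. The 3 groups did not overlap, with means of 1.07 ± 0.0643, 1.21 ± 0.0636 and 1.57 ± 0.0332 (SD, n = 3). Nfkb2 and Relb together made up 38.8, 36.5 and 36.7% of the 5 subunits in control, 44.8, 44.8 and 40.1% with adult platelets and 49.4, 46.6 and 48.1% with P7 platelets, again without overlap. For both measures each of the 3 comparisons gave p = 0.1 (exact two-sided permutation test, adjusted p = 0.1 over the 3), the smallest that 3 against 3 libraries allow. With the longest coding transcript as length, the mean ratio with P7 platelets was 1.05 and exceeded control by 0.305, and the share of Nfkb2 and Relb exceeded control by 7.81 percentage points. The P7 minus control difference of the ratio, 0.504 as given, was 0.154 with no gene length and 1.57 without the precursor genes Nfkb1 and Nfkb2, and that of the share, 10.7 points as given, was 3.19 for Relb alone.

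**Figure D4:**
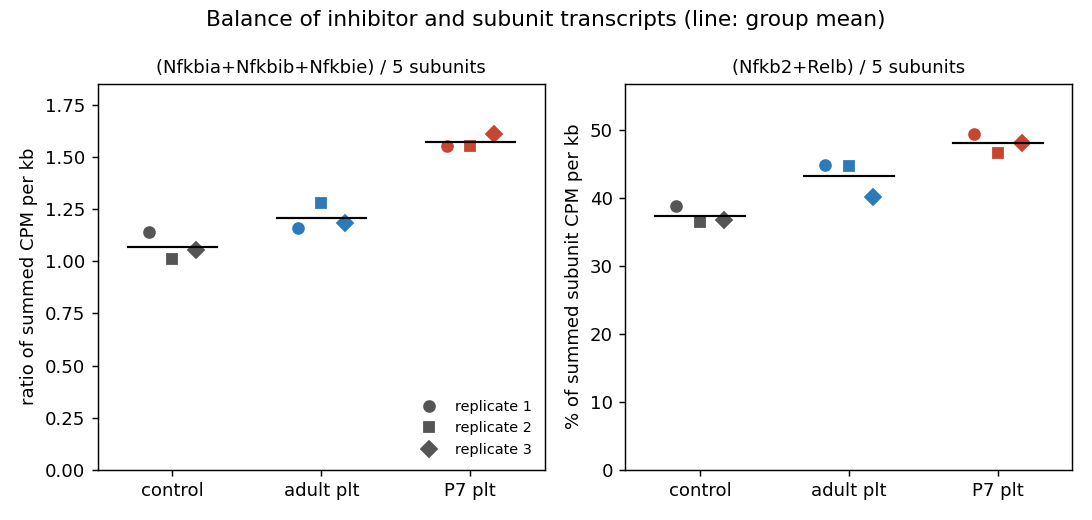
Left, ratio of the summed CPM per kb of exons of 3 classical inhibitor genes to that of the 5 subunit genes; right, percent of the 5 subunits held by Nfkb2 and Relb, in each library by group (plt: platelets), with group means as lines and axes from 0. The groups do not overlap in either panel, with ratios from 1.55 to 1.61 in the P7 libraries and from 1.01 to 1.14 in control.

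Of 10 genes of the IKK complex and related kinases 5 rose and 1 fell with P7 platelets against control, where 29.9% of all genes rose and 29.3% fell. Ikbke, the gene of an IKK-related kinase that also serves interferon induction, rose from 142 to 590 CPM (2.05 ± 0.27, adjusted p = 0.000143). The canonical complex moved little, with the regulatory subunit gene Ikbkg at 0.48 ± 0.08 (adjusted p = 0.000824), the IKK-alpha gene Chuk at 0.28 ± 0.06 (adjusted p = 0.00229) and the IKK-beta gene Ikbkb, the gene that fell, at -0.19 (adjusted p = 0.00793). Tbk1, the gene of another IKK-related kinase, rose by 0.31 ± 0.06 (adjusted p = 0.00209). The median of these 10 genes was 0.21. With adult platelets none rose and Ikbkb fell (-0.17 ± 0.05, adjusted p = 0.0358), where 14.3% of all genes rose and 12% fell. Against adult platelets P7 platelets gave 6 higher and 1 lower, where 19.7% of all genes rose and 19.8% fell.

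Of 19 adaptors upstream of IKK 11 rose and 3 fell with P7 platelets against control (median 0.51), where 29.9% of all genes rose and 29.3% fell. Traf1, a TNF receptor adaptor gene, rose from 71.4 to 359 CPM (2.33 ± 0.19, adjusted p = 1.14e-05), Irak3, the gene of a brake on Toll-like receptor signalling, from 69.6 to 174 (1.32 ± 0.12, adjusted p = 2.19e-05), and Myd88, the adaptor of most Toll-like receptors, from 150.3 to 268 (0.83 ± 0.10, adjusted p = 7.87e-05). Traf2, an adaptor of TNF receptors, rose by 0.56 ± 0.07 (adjusted p = 0.000116). With adult platelets Traf1 (0.90 ± 0.19, adjusted p = 0.00780) and Traf3 (0.38 ± 0.10, adjusted p = 0.0206) rose. These 2 of 19 are not above the share of all genes that rose there, 14.3%. P7 against adult platelets gave 11 higher and 1 lower, where 19.7% of all genes rose and 19.8% fell. Among the higher were Malt1 (1.53 ± 0.22) and Irak2 (0.86 ± 0.13) beside Traf1 (1.42 ± 0.19) and Irak3 (0.99 ± 0.12).

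Of 6 other tested genes, with products that are IkB-like or otherwise linked to NF-kB signalling, 3 rose and 2 fell with P7 platelets against control. There 29.9% of all genes rose and 29.3% fell. Nfkbid, the gene of a further nuclear IkB protein, rose from 91.4 to 131 CPM (0.52 ± 0.09, adjusted p = 0.000634), while Ikbip fell from 6.42 to 3.07 CPM (-1.06 ± 0.11, adjusted p = 3.46e-05) and Nfkbil1 from 18.5 to 13.5 CPM (-0.45 ± 0.10, adjusted p = 0.00411). Nkrf, the gene of a repressor that binds NF-kB target promoters, rose by 0.30 ± 0.11 (adjusted p = 0.0436). Against control adult platelets gave 1 lower gene of these 6, Ikbip, and none higher, where 12% of all genes fell and 14.3% rose.

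Among 22 tested target genes of NF-kB 21 rose with P7 platelets against control, with a median log2 fold change of 2.17, and 21 rose against adult platelets, with a median of 1.98. Of all genes tested 29.9% rose with P7 platelets against control and 19.7% against adult platelets. The list was chosen with earlier results of these samples known, so its direction is no independent evidence. Cxcl2, a neutrophil chemokine gene, rose 5.58-fold (adjusted p = 3.05e-06), Ehd1, an endocytic recycling gene, 4.16-fold (adjusted p = 3.42e-06), Bcl2l1, the gene of the survival factor Bcl-xL, 2.26-fold (adjusted p = 5.61e-06) and Tnf 11.7-fold (adjusted p = 7.48e-06). Cd83, an activation marker, was the target gene that did not pass (0.92 ± 0.47, adjusted p = 0.117). With adult platelets 3 of the 22 rose, namely Ehd1 (0.78 ± 0.13), Tnip1 (0.89 ± 0.17) and Tnf (0.93 ± 0.25), with adjusted p = 0.00329, 0.00542 and 0.0258, and the median was 0.28. That count is near the share of all genes that rose with adult platelets, 14.3%.

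For each member the tested gene outside the family with the most similar profile was sought among 9194 genes, by the root mean square difference over the 9 libraries of log2 CPM relative to the control mean. Traf2 was nearest to Rela, at a difference of 0.0294, Birc3, the gene of an inhibitor of apoptosis that acts in TNF receptor signalling, nearest to Nfkb2 at 0.0623, and Malt1, the gene of a paracaspase upstream of IKK, nearest to Nfkbiz at 0.0846. Dram1, a gene linked to autophagy, was nearest to both Nfkbia (0.0715) and Nfkbie (0.0905). The other nearest genes were Dot1l for Nfkb1 (0.0632), Prdx5 for Relb (0.0660), Slc39a13 for Nfkbib (0.0859), Naa25 for Bcl3 (0.0899) and, farthest from its member, Cep85l for Rel (0.107). Within the family Nfkb2 and Relb were nearest to each other (0.0753), and so were Nfkbia and Nfkbie (0.0903), while the nearest relative of Rel was Rela at 0.345.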

How the data were processed

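The authors deposited 1 file of raw counts per gene symbol for each library. Per the submitters' processing notes the tools were Salmon 1.3.0, featureCounts, Subread 2.0.1, STAR 2.7.6a and fastp 0.20.1, with no role given. Libraries were stranded, from poly(A) RNA, per the labels' protocols. How strand was counted, the build and the annotation are not given in these sources. GENCODE M21 has 53292 of the symbols.

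edgeR 4.0.16 (R 4.3.3) was fitted to all 9 libraries by group, with TMM factors (0.882 to 1.10) and filterByExpr (minimum count 10), with 6 residual degrees of freedom and Benjamini-Hochberg adjustment over 13707 genes per comparison. The method was tested on simulated data. All 10 members are named. Of each list up to 4 genes by smallest p are named per comparison, and others were added after their values were seen (Map3k14, Ikbkb with P7 platelets, Cd83, Igkc, monocyte markers). The members and lists were chosen with earlier results of these data known. Lengths came from GENCODE M21, and log2 CPM for profiles used a prior count of 0.5. No replicate files were identical. Deviations from the group means of same-numbered control and P7 libraries correlated at 0.17 to 0.56 in all 3 pairs. Control replicate 2 correlated more with P7 replicate 3 (0.29) than with P7 replicate 2 (0.17). Pairing by number was therefore not established, and the main fit used none. Alternatives were other scalings, filters and tests (DESeq2 1.42.0, limma-voom 3.58.1), a replicate block, only 2 groups, removal of transcripts, other lengths, and leaving out each library. The Igkc term and the coding transcript length were added after the data were seen.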

Additional observations from a re-analysis of the deposited data

How the results depend on the processing

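With P7 platelets the members' directions held under all 19 alternatives against control and against adult platelets, and 9 or 10 members rose in each, the tenth being Rel. Of 570 values of single members, 534 kept direction and side of the threshold, 5 lost the call (all Relb with adult platelets), 28 gained one and 3 reversed. Those 3, with adult platelets against control, were Nfkbiz without control replicate 2 (-0.005) and without adult platelet replicate 2 (-0.16), and Nfkb1 without adult platelet replicate 2 (-0.033). Over the 9 fits that left out 1 library Nfkbiz ranged from -0.16 to 0.23 and Nfkb1 from -0.033 to 0.18.

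The count of members changed with adult platelets, 1 in the report, was 5 with no filter, 5 with the DESeq2 Wald test, 2 with only the 2 groups compared, 6 with the Igkc term and 0 to 5 when 1 library was left out. It was 0 without each of control replicates 1, 2 and 3 and adult platelet replicates 1 and 2. The count of all genes changed with adult platelets, 3617 in the report, ranged from 2031 (without control replicate 2) to 3774 over the fits that left out 1 library, and was 2207 without control replicate 3. The cause was not tested.

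The inhibitor to subunit ratio rests on the lengths used. Its difference was, in the order adult platelets minus control, P7 minus control and P7 minus adult platelets, 0.138, 0.504 and 0.366 in the report, 0.0600, 0.154 and 0.0940 with no gene length, and 0.376, 1.57 and 1.19 with the precursor genes Nfkb1 and Nfkb2 left out. With the coding transcript length it was 0.305 for P7 minus control and 0.207 for P7 minus adult platelets. The share of Nfkb2 and Relb differed by 5.89, 10.7 and 4.80 percentage points in the report. With Relb alone it differed by 2.08, 3.19 and 1.11 points. For P7 minus control and P7 minus adult platelets it differed by 7.61 and 2.13 with no gene length and by 7.81 and 2.40 with the coding transcript length. Leaving out 1 library gave 0.102 to 0.173, 0.476 to 0.539 and 0.342 to 0.402 for the ratio and 5.11 to 7.44, 10.01 to 11.4 and 3.26 to 5.59 points for the share. No direction changed.

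Pairing by replicate number was not established for any comparison. In the 2 with adult platelets, same-numbered libraries had correlations above 0.1 in 2 of 3 pairs in each (-0.09 to 0.55 with control, -0.07 to 0.48 with P7 platelets). Between control and P7 platelets all 3 pairs did, but control replicate 2 correlated more with P7 replicate 3 (0.29) than with P7 replicate 2 (0.17). Over all groups 3 of 9 libraries correlated best with their own number. With a replicate block 10 members rose with P7 platelets against control, 10 against adult platelets and 1 with adult platelets, and 4228, 8565 and 5965 genes changed with adult platelets against control, P7 against control and P7 against adult platelets. Rel then passed with P7 platelets (0.33, adjusted p = 0.0176, and 0.55, adjusted p = 0.00277), and no other member's call changed.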
